A study of Mus musculus with 9 samples.

Results

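The genes of protein folding in the endoplasmic reticulum (ER) and of the unfolded protein response were described in whole mouse pancreas of embryos at stage e18.5. The set was a named list of 36 ER chaperones, disulfide isomerases, translocon subunits, genes of ER-associated degradation (ERAD), stress sensors and stress effectors. All 36 were among the 55453 gene symbols counted, and all 36 were among the 19166 genes that passed the filter on low counts and were tested. RNA was sequenced from 9 embryos, 3 in each of 3 groups, on a strain labelled mixed, C57BL6. The first group carried Pdx1:Cre with mutant Grg3 and Grg4, the second carried Pdx1:Cre with mutant Grg3, and the controls carried Pdx1:Cre alone. Every embryo therefore had the Cre. Its Pdx1 promoter is active in the early pancreatic epithelium. Alleles that depend on this Cre would be changed in that epithelium and not in the mesenchyme, vessels or blood cells of the organ. Counts from whole organs do not show where the alleles acted. Grg3 and Grg4 are the Groucho co-repressors encoded by Tle3 and Tle4, which are brought to DNA by other transcription factors.

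Secretory and membrane proteins enter the ER through the Sec61 channel, fold there with the help of chaperones and of enzymes that form disulfide bonds, and are sent back to the cytosol for degradation when folding fails. Unfolded protein activates 3 sensors in the ER membrane, which raise the transcription of chaperones and ERAD genes and slow translation. Acinar cells of the pancreas make digestive enzymes in very large amounts, and Xbp1, an effector of this response, is required for their normal ER.

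The gene counts summed to 46817453 to 62744499 per library. CPM below are counts per 1e6 gene counts after scaling of the library sizes, and a change is a log2 ratio of the first group named to the second. The tissue label was met by the 35 acinar enzyme genes, whose reads were 28.9% to 31.1% of all gene counts in the libraries labelled Grg3 Grg4 mutant, 24.9% to 37.2% in those labelled Grg3 mutant and 37.3% to 39.6% in the controls. Tle3, the targeted gene, went against the labels, with 131, 126 and 146 CPM in the libraries labelled Grg3 Grg4 mutant, 148, 167 and 145 CPM in those labelled Grg3 mutant and 63.1, 67.7 and 63.6 CPM in the controls. In edgeR it rose with both labels, by a log2 change of 1.05 (adjusted p = 0.000557) and 1.24 (adjusted p = 0.00027), and counts per gene do not show which exons the reads covered. Tle4, the other target under the Grg3 Grg4 label, had 10.7, 15.5 and 8.63 CPM there, 9.83, 13.0 and 13.8 CPM under the Grg3 label and 7.84, 7.79 and 7.68 CPM in controls. Its mutant-labelled libraries were all above the controls, and both mutant labels overlapped each other. The log2 change of Tle4 was 0.58 ± 0.21 (SE, adjusted p = 0.155 in edgeR) under the Grg3 Grg4 label and 0.65 ± 0.21 (adjusted p = 0.132) under the Grg3 label, and neither passed. Directions below therefore hold between labels. By the counts of Xist and of the Y-linked gene Ddx3y, all 3 libraries labelled Grg3 Grg4 mutant were male, while the other groups had 1 male and 2 females each. The second library labelled Grg3 mutant stood apart, with the lowest sum of acinar enzymes of the 9 libraries (214191 CPM) and the highest sum of 12 mesenchymal genes (14692 CPM, against 9141 to 11250.5 CPM in the other libraries). The second library labelled Grg3 Grg4 mutant had 3249 CPM of 15 muscle genes, while all other libraries had between 74.7 and 443 CPM.

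The sites below are shown because they are the element that the response is known to act through. The ER stress response element (ERSE) is CCAAT, then any 9 bases, then CCACG, where the general factor NF-Y binds the CCAAT end and Atf6 the CCACG end. Promoter windows from RefSeq on GRCm38.p6, 250 bases before to 50 bases after the start of a gene, were found for 30 of the 36 genes, and both strands were searched. An exact ERSE was present in 9 of these 30 genes, and in 37 of the 27025 genes with a window (0.137%). The 9 were Hspa5, Hsp90b1, Calr, Canx, Dnajc3, Pdia6, Creld2, Syvn1 and Derl3, while the chaperones Dnajb9 and Sdf2l1 had a window and no ERSE. The genes were listed for their part in this response, so the higher share among them is no independent support. Each line gives the element with 10 bases on either side, 5′ to 3′ in the direction of the element, with CCAAT and CCACG in capitals. Hsp90b1, the ER form of Hsp90, had 2 such elements, and Herpud1 had the related ERSE-II, which is ATTGG, then any 1 base, then CCACG, shown in capitals with the base between. ERSE-II was in 1 of the 30 genes and in 12 of the 27025 (0.0444%).
Hspa5: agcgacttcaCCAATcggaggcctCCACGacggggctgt
Hsp90b1, nearer element: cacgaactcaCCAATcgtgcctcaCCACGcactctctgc
Hsp90b1, farther element: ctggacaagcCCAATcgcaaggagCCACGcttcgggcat
Calr: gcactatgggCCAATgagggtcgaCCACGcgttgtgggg
Dnajc3: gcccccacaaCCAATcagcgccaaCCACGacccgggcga
Pdia6: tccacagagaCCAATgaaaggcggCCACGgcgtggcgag
Creld2: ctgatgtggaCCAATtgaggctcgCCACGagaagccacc
Herpud1 ERSE-II: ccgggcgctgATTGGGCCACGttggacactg
The element of Hspa5 lay at chr2:34772025-34772043, 46 bases before the RefSeq start, on the strand of the gene. Over the set, the distance to the start ran from 25 bases in Syvn1 to 193 bases in the farther element of Hsp90b1. The Xbp1 motif TGACGTGG was in none of the 30 windows and in 193 of the 27025 (0.714%), and the Atf4 motif TGATGCAAT was in none of the 30 and in 60 of the 27025 (0.222%). These searches describe letters in a window of 300 bases and show no binding. The 9 genes with an ERSE had a median log2 change of -0.071 in libraries labelled Grg3 Grg4 mutant and -0.020 in libraries labelled Grg3 mutant, both against control. The 21 genes with a window and no ERSE had medians of -0.21 and -0.12 in the same comparisons. With libraries scaled by the total gene count alone, an alternative chosen after seeing the data, the medians turned to 0.18 and 0.16 with an ERSE and to 0.033 and 0.050 without, and the difference between these sets was not tested.

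In none of the comparisons did a gene of the set pass the test. With edgeR's quasi-likelihood test and an adjusted p under 0.05, 0 of 36 were called between libraries labelled Grg3 Grg4 mutant and controls, where 2.14% of all genes tested were called. Between libraries labelled Grg3 mutant and controls the count was again 0 of 36, beside 1.40% of all genes. Between both mutant labels it was 0 of 36, beside 0.188% of all genes. At an unadjusted p under 0.05 the counts were 3, 9 and 3 of 36 in the same order, beside 20.2%, 19.1% and 17.3% of all genes. DESeq2's Wald test called 2, 3 and 0 of the 36, beside 8.10%, 7.63% and 5.32% of all genes.

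Sizes were small across the set. The median log2 change of the 36 genes was -0.18 in libraries labelled Grg3 Grg4 mutant against control, with 5 values above 0 and 31 below, while the median over all genes tested was 0.012. It was -0.086 in libraries labelled Grg3 mutant against control, with 13 above 0 and 23 below, and 0.019 over all genes. The 95% interval of the log2 change lay between -1 and 1, that is within 2-fold, for 35 of 36 genes in the first comparison, for 33 of 36 in the second, and for all 36 between the mutant labels. Dnajb9 was the exception under the Grg3 Grg4 label, and Edem1, Sel1l and Eif2ak3 were the exceptions under the Grg3 label. Both comparisons share the 3 control libraries, so their values are given side by side and not as support for each other.

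The sign of both medians depended on the scaling, and that of the median under the Grg3 label also on 1 library. With the total gene count as the scale, the median over all genes moved to 0.26 under the Grg3 Grg4 label and 0.22 under the Grg3 label, and the medians of the 36 genes became 0.063 and 0.088, with 26 and 25 values above 0. Relative to all genes, the set then stood at -0.20 and -0.13, against -0.20 and -0.10 with the scaling used. That scaling also moved the split of all called genes. Under the Grg3 Grg4 label it gave 1637 higher and 113 lower, where the scaling used gave 238 and 172, and under the Grg3 label 562 and 85, where the scaling used gave 135 and 133. Without the second library labelled Grg3 mutant, the median of the set against control was 0.061, where all genes had 0.0069, and without the third it was -0.18. The median under the Grg3 Grg4 label was -0.28 without the first library of that label and -0.11 without the second.

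**Figure D1:**
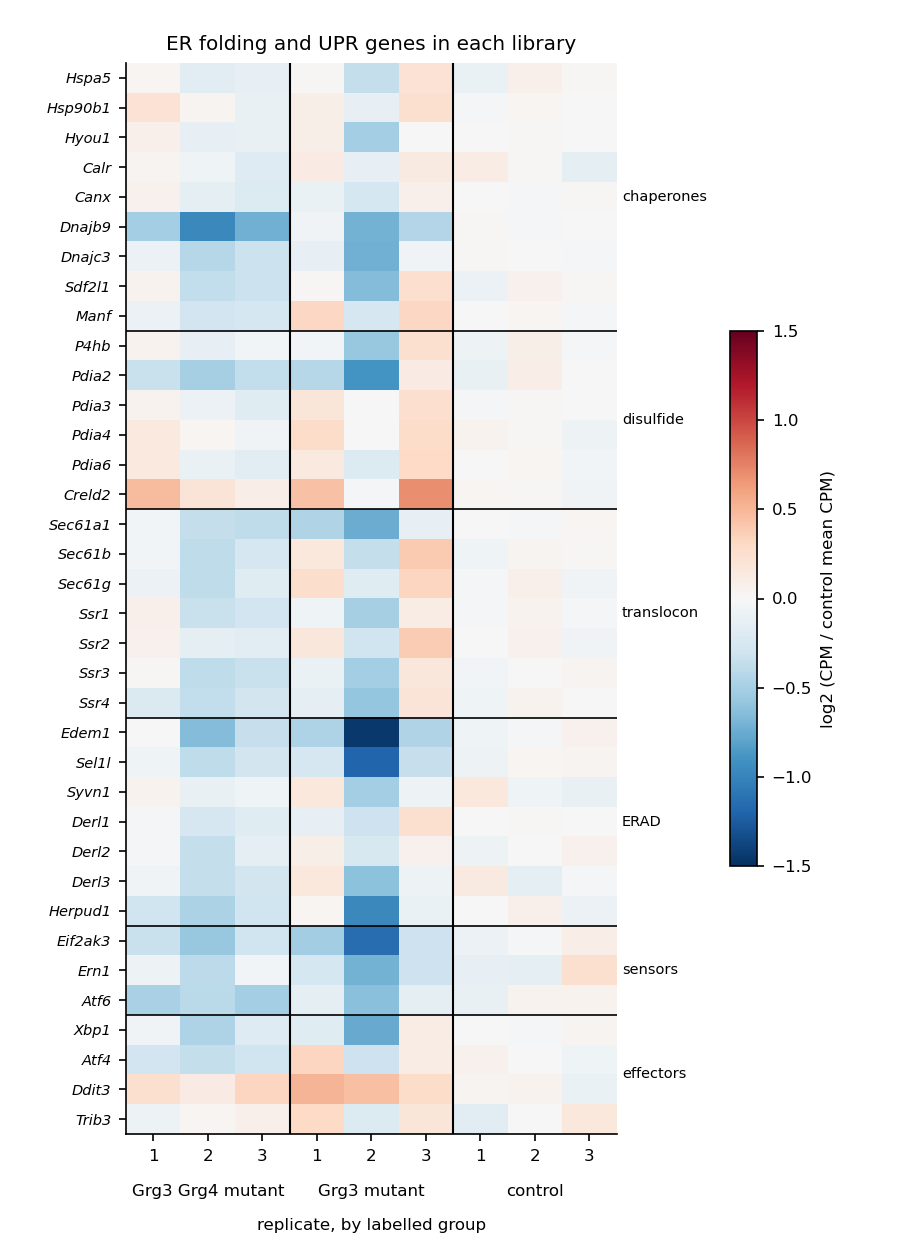
Each cell gives the log2 ratio of a gene's CPM in 1 library (columns, 3 per labelled group) to its mean CPM in the 3 controls, with genes in rows grouped by role. The second library labelled Grg3 mutant was the lowest of the 9 for 25 of the 36 genes, and the third was the highest for 19.

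The 3 sensors had lower mean CPM under both mutant labels than in controls without passing the test. Under the Grg3 label, all 3 sensors lay below the controls with no overlap, as 12.0% of all genes did, and under the Grg3 Grg4 label 2 of 3 did, beside 14.2% of all genes. With the total gene count as the scale, Eif2ak3 alone of the sensors kept below the controls under the Grg3 label, Eif2ak3 and Atf6 did under the Grg3 Grg4 label, and the log2 change of Ern1 under the Grg3 Grg4 label turned to 0.081. Eif2ak3 (PERK, chr6:70844515-70905245 on GRCm38) is the kinase that phosphorylates the translation factor eIF2α under ER stress. Reads of Eif2ak3 stood at 165, 140.2 and 169 CPM in libraries labelled Grg3 Grg4 mutant, at 145, 94.0 and 167 CPM in those labelled Grg3 mutant and at 195, 205 and 222 CPM in controls. All 6 mutant-labelled libraries were below the 3 controls, and the lowest of them was the second one labelled Grg3 mutant. Its log2 change was -0.39 ± 0.18 (SE, adjusted p = 0.255 in edgeR) under the Grg3 Grg4 label and -0.62 ± 0.18 (adjusted p = 0.111) under the Grg3 label. Without the second library labelled Grg3 mutant, Eif2ak3 stood at -0.41 under that label (adjusted p = 0.0995, within a range of 0.0151 to 0.333 over 15 settings). In 2 of these, DESeq2's Wald test and the fit without a filter, the gene was called.

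Atf6 (chr1:170704674-170867771) is the sensor that is cut in the Golgi to release a transcription factor. For Atf6, the counts came to 64.5, 68.4 and 63.7 CPM under the Grg3 Grg4 label, 81.6, 58.7 and 81.7 CPM under the Grg3 label and 83.6, 94.1 and 93.9 CPM in controls. Again all 6 mutant-labelled libraries lay below the controls, and the 3 labelled Grg3 Grg4 mutant lay between 63.7 and 68.4 CPM. The log2 change was -0.47 ± 0.12 (SE, adjusted p = 0.0779 in edgeR) under the Grg3 Grg4 label and -0.29 ± 0.12 (adjusted p = 0.232) under the Grg3 label. Over 15 settings the adjusted p of the first value ran from 0.0135 to 0.252, and 3 settings called it. Ern1 (IRE1α, chr11:106394650-106487852) is the kinase and nuclease that splices the Xbp1 transcript. Ern1 was at 68.8, 55.2 and 70.7 CPM under the Grg3 Grg4 label, at 60.5, 44.3 and 58.4 CPM under the Grg3 label and at 66.5, 65.5 and 85.9 CPM in controls. The libraries labelled Grg3 mutant were all below the controls, and those labelled Grg3 Grg4 mutant overlapped them. Its log2 change was -0.16 ± 0.15 (SE, adjusted p = 0.599 in edgeR) under the Grg3 Grg4 label and -0.42 ± 0.15 (adjusted p = 0.177) under the Grg3 label.

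**Figure D2:**
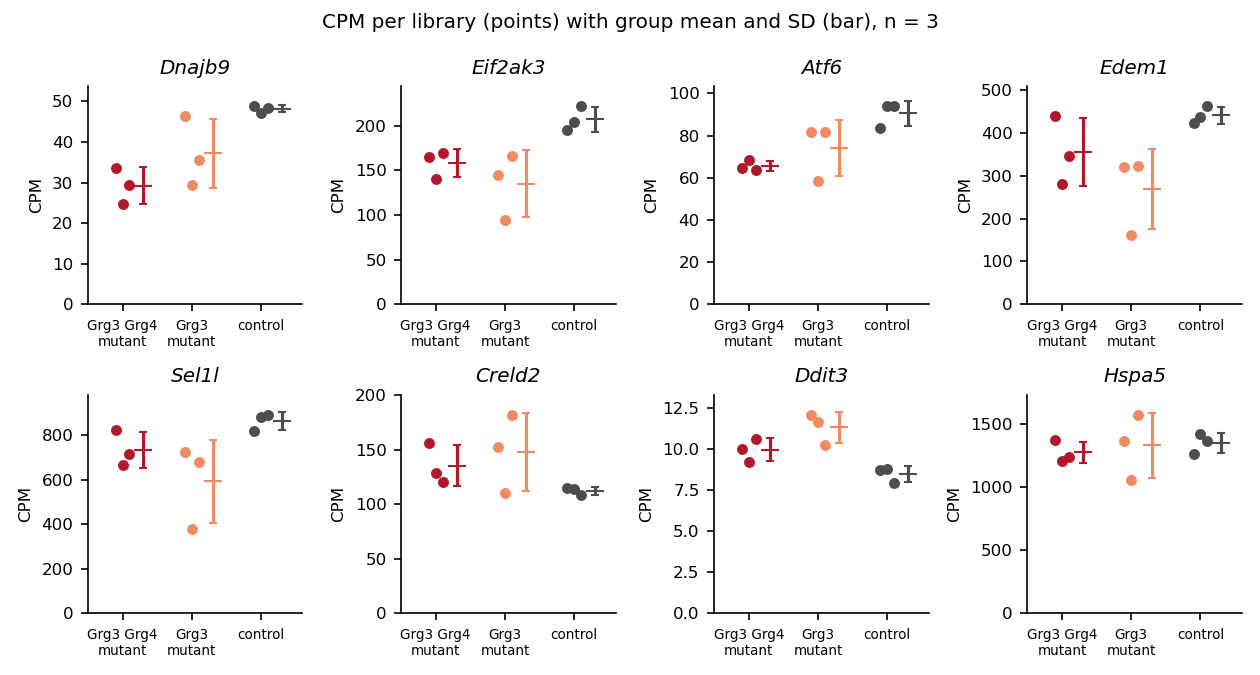
Points give CPM per library on axes that start at 0, and the bar beside them gives the group mean with its SD (n = 3). Dnajb9, Eif2ak3 and Atf6 were below every control in all 6 mutant-labelled libraries, Ddit3 was above every control, and Hspa5 overlapped, while with the total gene count as the scale Dnajb9 and Atf6 overlapped under the Grg3 label and Hspa5 lay above the controls under the Grg3 Grg4 label.

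Among the effectors, the transcription factors downstream of the sensors had values on both sides of 0. Xbp1, which is made active by Ern1, drives ERAD and ER growth genes. Xbp1 had 435, 327 and 395 CPM in the libraries labelled Grg3 Grg4 mutant, 396, 266 and 485 CPM in those labelled Grg3 mutant and 447, 439.7 and 463 CPM in the controls. The libraries labelled Grg3 Grg4 mutant were each below the lowest control, and those labelled Grg3 mutant spread on both sides of the controls. The log2 changes of Xbp1 were -0.22 ± 0.19 (SE) and -0.24 ± 0.19 under these labels, with adjusted p of 0.560 and 0.537 in edgeR. Gene counts do not separate spliced from unspliced Xbp1. Atf4 is the factor translated when eIF2α is phosphorylated. Reads of Atf4 stood at 198, 188 and 196 CPM in libraries labelled Grg3 Grg4 mutant, at 302, 196 and 261 CPM in those labelled Grg3 mutant and at 253, 241 and 232 CPM in controls. Those labelled Grg3 Grg4 mutant lay between 188 and 198 CPM, below all controls, whereas those labelled Grg3 mutant overlapped the controls. The log2 change was -0.32 ± 0.14 (SE, adjusted p = 0.233 in edgeR) under the Grg3 Grg4 label and 0.064 ± 0.14 (adjusted p = 0.848) under the Grg3 label.

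Ddit3 (CHOP, chr10:127290774-127296288) is an Atf4 target linked to cell death under lasting stress. For Ddit3, the counts came to 10.02, 9.21 and 10.6 CPM under the Grg3 Grg4 label, 12.1, 11.6 and 10.3 CPM under the Grg3 label and 8.72, 8.77 and 7.94 CPM in controls. It lay above the controls in all 6 mutant-labelled libraries, as did 1 of the 36 genes in all, beside 4.91% of all genes. The log2 change was 0.23 ± 0.11 (SE, adjusted p = 0.286 in edgeR) under the Grg3 Grg4 label and 0.42 ± 0.11 (adjusted p = 0.0970) under the Grg3 label, the smallest adjusted p of the set there. Of the exon bases of Ddit3, 4.73% are shared with other annotated genes, among them Mars. Trib3, a pseudokinase induced by Atf4 and Ddit3, averaged 9.04 ± 0.50 CPM under the Grg3 Grg4 label, 9.66 ± 1.69 CPM under the Grg3 label and 8.97 ± 1.05 CPM in controls (SD, n = 3 each), and its groups overlapped.

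The chaperones held 1 gene near the threshold, and the abundant ones differed little. Dnajb9 (ERdj4, chr12:44205559-44210326) is a co-chaperone of Hspa5 that also helps to keep Ern1 inactive. Dnajb9 was at 33.7, 24.7 and 29.3 CPM under the Grg3 Grg4 label, at 46.5, 29.5 and 35.5 CPM under the Grg3 label and at 48.9, 47.2 and 48.4 CPM in controls. All 6 mutant-labelled libraries were below the controls, which lay between 47.2 and 48.9 CPM. The log2 change was -0.72 ± 0.16 (SE) under the Grg3 Grg4 label, with an adjusted p of 0.0501 in edgeR, just outside the threshold of 0.05. It was -0.37 ± 0.16 (SE, adjusted p = 0.237 in edgeR) under the Grg3 label. For the first of these comparisons the adjusted p ran from 0.00117 to 0.173 over 15 settings, 4 of which called the gene, and the log2 change ran from -0.91 with embryo sex in the model to -0.48 with the total count as the scale. Dnajc3 (p58IPK) is another co-chaperone of Hspa5. Its mutant labels overlapped, with a log2 change of -0.0067 between them (adjusted p = 0.989 in edgeR). Dnajc3 had 285, 225 and 243 CPM in the libraries labelled Grg3 Grg4 mutant, 279, 185 and 293 CPM in those labelled Grg3 mutant and 307, 306 and 298 CPM in the controls. Its 6 mutant-labelled libraries lay below the controls, as did 5.75% of all genes, with log2 changes of -0.27 ± 0.16 (SE, adjusted p = 0.379 in edgeR) and -0.27 ± 0.16 (adjusted p = 0.399). With the total gene count as the scale, Dnajc3 overlapped the controls under both labels.

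Hspa5 (BiP, chr2:34771970-34777547) is the main chaperone of the ER and the standard reporter of the response. Reads of Hspa5 stood at 1374, 1212 and 1244 CPM in libraries labelled Grg3 Grg4 mutant, at 1365, 1058 and 1575 CPM in those labelled Grg3 mutant and at 1263, 1425 and 1365 CPM in controls. The 3 groups overlapped, and the highest and the lowest library both carried the Grg3 label. The log2 change of Hspa5 was -0.082 ± 0.15 (SE, adjusted p = 0.800 in edgeR) under the Grg3 Grg4 label, with a 95% interval from -0.41 to 0.25. It was -0.020 ± 0.15 under the Grg3 label, with an interval from -0.35 to 0.31 (adjusted p = 0.960). Manf is a small secreted ER protein induced by stress. For Manf, the counts came to 202, 177 and 179.6 CPM under the Grg3 Grg4 label, 268, 180.4 and 266 CPM under the Grg3 label and 214, 220.0 and 212 CPM in controls. Libraries labelled Grg3 Grg4 mutant lay below all controls, and the log2 changes against control were -0.21 ± 0.14 and 0.15 ± 0.14 (SE, adjusted p = 0.447 and 0.616 in edgeR). The other 5 chaperones overlapped between groups in both comparisons. They were Hsp90b1, the lectin chaperones Calr and Canx, Hyou1, which exchanges nucleotide on Hspa5, and Sdf2l1, and their log2 changes lay between -0.20 and 0.055 under the Grg3 Grg4 label and between -0.12 and 0.075 under the Grg3 label. Of the exon bases of Hsp90b1, 15.7% are shared with other annotated genes on either strand. The shares are 12.8% for Ssr2, 9.25% for Manf, 8.16% for Sec61a1 and 8.05% for Eif2ak3. Which of the other genes lie on the same strand was not examined, so the part of their reads affected is not known.

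The disulfide isomerases made up 42.0% of the summed CPM of the set under the Grg3 Grg4 label, 42.2% under the Grg3 label and 42.1% in controls. Pdia2 (chr17:26195999-26199087) is the isomerase found mainly in pancreas. Pdia2 was at 2361, 2102 and 2301 CPM under the Grg3 Grg4 label, at 2209, 1599 and 3251 CPM under the Grg3 label and at 2759, 3195 and 2976 CPM in controls. The libraries labelled Grg3 Grg4 mutant were below all controls, and the third library labelled Grg3 mutant was above them. Its log2 change was -0.40 ± 0.22 (SE, adjusted p = 0.342 in edgeR) under the Grg3 Grg4 label and -0.34 ± 0.22 (adjusted p = 0.433) under the Grg3 label. P4hb, the general protein disulfide isomerase, overlapped in both comparisons, with log2 changes of -0.036 ± 0.19 and -0.083 ± 0.19 (SE). Creld2, a stress-induced protein with a disulfide exchange motif, was the one gene of this role above all controls under the Grg3 Grg4 label, where 14.9% of all genes were. Creld2 had 156, 129 and 121 CPM in the libraries labelled Grg3 Grg4 mutant, 152, 110.5 and 182 CPM in those labelled Grg3 mutant and 115, 114 and 108 CPM in the controls. Its second library labelled Grg3 mutant lay among the controls and the other 2 above them. The log2 change was 0.27 ± 0.16 (SE, adjusted p = 0.400 in edgeR) under the Grg3 Grg4 label and 0.40 ± 0.16 (adjusted p = 0.227) under the Grg3 label.

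Pdia3, which works with Calr and Canx on glycoproteins, had 580, 526 and 494 CPM in the libraries labelled Grg3 Grg4 mutant, 633, 561 and 666 CPM in those labelled Grg3 mutant and 552, 567 and 560 CPM in the controls. Reads of Pdia4 stood at 233, 214 and 204 CPM in libraries labelled Grg3 Grg4 mutant, at 254, 209.6 and 255 CPM in those labelled Grg3 mutant and at 218, 214 and 199.7 CPM in controls. Both overlapped the controls under either label. With the total gene count as the scale, both lay above every control in all 6 mutant-labelled libraries, as 17.0% of all genes did. Their log2 changes were -0.069 ± 0.10 for Pdia3 and 0.044 ± 0.10 for Pdia4 under the Grg3 Grg4 label, and 0.15 ± 0.10 for Pdia3 and 0.19 ± 0.10 for Pdia4 under the Grg3 label (SE). Pdia6 stood at -0.035 ± 0.14 and 0.095 ± 0.14 in the same comparisons.

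The translocon genes were all below 0 under the Grg3 Grg4 label, with a median log2 change of -0.21 over 7 genes and none called, but with the total gene count as the scale 5 of 7 were above 0 and the median was 0.033. Without the second library labelled Grg3 Grg4 mutant the median was -0.14. Sec61a1 (chr6:88503579-88518905) encodes the pore of the channel through which new chains enter the ER. For Sec61a1, the counts came to 331, 267 and 263 CPM under the Grg3 Grg4 label, 249, 204 and 314 CPM under the Grg3 label and 342, 336 and 348 CPM in controls. All 6 mutant-labelled libraries lay below the controls, but with the total gene count as the scale this held for Sec61a1 under the Grg3 label alone. The log2 change was -0.25 ± 0.15 (SE, adjusted p = 0.388 in edgeR) under the Grg3 Grg4 label and -0.42 ± 0.15 (adjusted p = 0.175) under the Grg3 label. The small subunits behaved otherwise under the Grg3 label. Sec61b was at 162, 128 and 139.8 CPM under the Grg3 Grg4 label, at 185, 129 and 218 CPM under the Grg3 label and at 158, 171 and 168 CPM in controls. Sec61g had 87.1, 71.2 and 81.6 CPM in the libraries labelled Grg3 Grg4 mutant, 111, 81.4 and 116 CPM in those labelled Grg3 mutant and 90.6, 97.6 and 89.5 CPM in the controls. Under the Grg3 label both had libraries above and below the controls, with log2 changes of 0.094 ± 0.17 for Sec61b and 0.15 ± 0.13 for Sec61g (SE). Under the Grg3 Grg4 label the values were -0.21 ± 0.17 for Sec61b and -0.21 ± 0.13 for Sec61g. There Sec61g lay below all controls, as Sec61a1 did, and Sec61b overlapped them.

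Ssr1 to Ssr4 form the translocon-associated protein complex, which assists the entry of some chains. Reads of Ssr4 stood at 329.6, 296 and 315 CPM in libraries labelled Grg3 Grg4 mutant, at 346, 256 and 437 CPM in those labelled Grg3 mutant and at 366, 396 and 385 CPM in controls. The libraries labelled Grg3 Grg4 mutant were below all controls, and those labelled Grg3 mutant spread on both sides. The log2 changes of Ssr4 were -0.29 ± 0.16 (SE, adjusted p = 0.358 in edgeR) under the Grg3 Grg4 label and -0.15 ± 0.16 (adjusted p = 0.672) under the Grg3 label. Ssr1, Ssr2 and Ssr3 overlapped the controls in both comparisons, with log2 changes from -0.22 to -0.079 under the Grg3 Grg4 label and from -0.13 to 0.11 under the Grg3 label.

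The ERAD genes were all below 0 in both comparisons, with medians of -0.22 under the Grg3 Grg4 label and -0.14 under the Grg3 label over 7 genes and none called, but with the total gene count as the scale 5 and 4 of 7 were above 0, with medians of 0.023 and 0.032. Without the second library labelled Grg3 mutant, 4 of 7 were above 0 under that label, with a median of 0.042. That median was -0.31 without the first library labelled Grg3 mutant and -0.072 without the first control. Edem1 (chr6:108828641-108859356) trims mannose from misfolded glycoproteins and hands them on for degradation. For Edem1, the counts came to 439, 281 and 346 CPM under the Grg3 Grg4 label, 322, 162 and 323 CPM under the Grg3 label and 424, 438 and 463 CPM in controls. The libraries labelled Grg3 mutant lay below all controls, and the first library labelled Grg3 Grg4 mutant lay among them. Its log2 change was -0.31 ± 0.24 (SE, adjusted p = 0.516 in edgeR) under the Grg3 Grg4 label and -0.72 ± 0.25 (adjusted p = 0.156) under the Grg3 label. Without the second library labelled Grg3 mutant, Edem1 stood under that label at -0.45 (adjusted p = 0.179, within a range of 0.0308 to 0.377 over 15 settings).

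Sel1l (chr12:91806043-91849157) anchors the ubiquitin ligase Syvn1, and the pair forms the main ERAD channel. Sel1l was at 824, 665 and 716 CPM under the Grg3 Grg4 label, at 723, 379.9 and 678 CPM under the Grg3 label and at 819, 880.1 and 892 CPM in controls. Again those labelled Grg3 mutant lay below all controls and those labelled Grg3 Grg4 mutant overlapped them. The log2 change of Sel1l was -0.23 ± 0.21 (SE, adjusted p = 0.577 in edgeR) under the Grg3 Grg4 label and -0.54 ± 0.21 (adjusted p = 0.199) under the Grg3 label, where it was -0.30 without the second library. Syvn1 itself overlapped the controls throughout, with log2 changes of -0.041 ± 0.15 and -0.12 ± 0.15 (SE). Herpud1, a partner of the same ligase and the carrier of the ERSE-II shown above, had no overlap with the controls under the Grg3 Grg4 label. Herpud1 had 238, 211 and 238 CPM in the libraries labelled Grg3 Grg4 mutant, 298, 149.8 and 273 CPM in those labelled Grg3 mutant and 294, 308 and 276 CPM in the controls. Of its libraries labelled Grg3 mutant, the first lay among the controls and the other two below them. Its log2 changes were -0.36 ± 0.21 (SE, adjusted p = 0.374 in edgeR) and -0.29 ± 0.21 (adjusted p = 0.489). Among the derlins, which pass substrates through the membrane, Derl1 lay below all controls under the Grg3 Grg4 label. Reads of Derl2 stood at 41.0, 32.8 and 38.1 CPM in libraries labelled Grg3 Grg4 mutant, at 44.7, 35.5 and 43.8 CPM in those labelled Grg3 mutant and at 39.9, 41.9 and 44.0 CPM in controls. Its groups overlapped, as did those of Derl3, and the log2 changes of the 3 derlins lay between -0.22 and -0.15 under the Grg3 Grg4 label and between -0.14 and -0.022 under the Grg3 label.

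Counted over the set, 2 genes (Creld2 and Ddit3) lay above all controls under the Grg3 Grg4 label, beside 14.9% of all genes, and 13 lay below all controls, beside 14.2% of all genes. Under the Grg3 label 1 gene (Ddit3) lay above, beside 12.6% of all genes, and 8 lay below, beside 12.0%. The genes of the set are counted in the same libraries and are not independent of each other. Across all 6 mutant-labelled libraries, 5 genes (Dnajb9, Dnajc3, Sec61a1, Eif2ak3 and Atf6) lay below every control, beside 5.75% of all genes, and 1 (Ddit3) above every control, beside 4.91%. These counts moved with the scale. With the total gene count, 9 genes lay above all controls and 4 below under the Grg3 Grg4 label, beside 39.3% and 3.22% of all genes, and 12 lay above and 4 below under the Grg3 label, beside 24.2% and 3.63%. The 9 were Hspa5, Hsp90b1, Hyou1, P4hb, Pdia3, Pdia4, Creld2, Ssr2 and Ddit3. The 12 were Hsp90b1, Canx, Manf, Pdia3, Pdia4, Pdia6, Creld2, Sec61g, Ssr2, Derl1, Derl2 and Ddit3. In all 6 mutant-labelled libraries, 6 genes (Hsp90b1, Pdia3, Pdia4, Creld2, Ssr2 and Ddit3) then lay above every control, beside 17.0% of all genes. On that scale 1 gene (Eif2ak3) lay below, beside 1.13%.

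**Figure D3:**
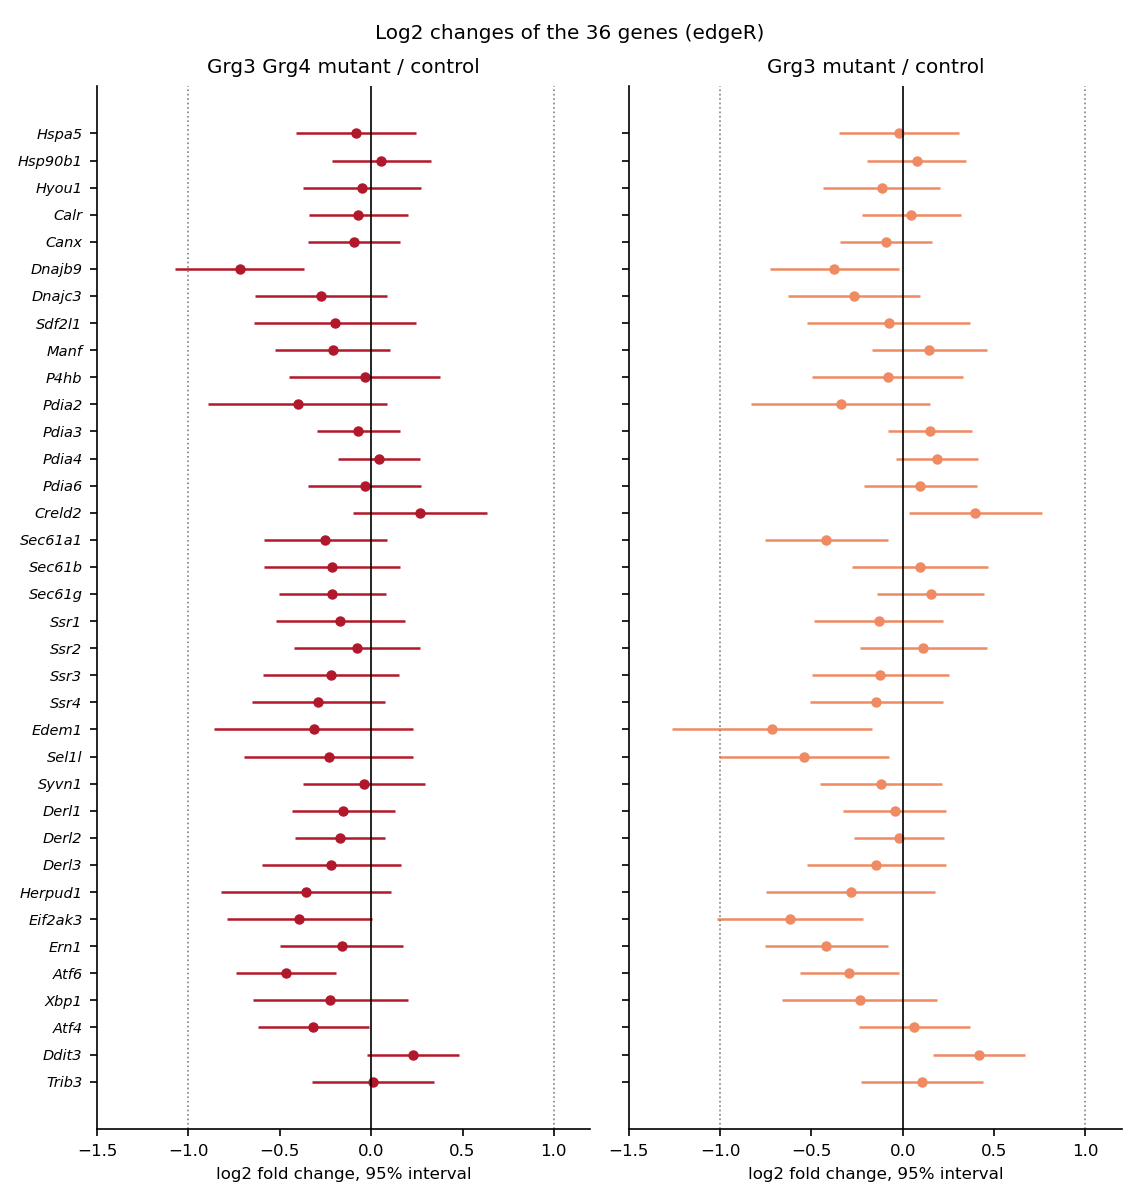
Points give the log2 change of each gene against control under the Grg3 Grg4 label (left) and the Grg3 label (right), with 95% intervals from edgeR, and dotted lines mark a log2 change of 1 in either direction. No gene passed the adjusted test, and the intervals of 35 genes on the left and 33 on the right stayed within the dotted lines.

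Libraries labelled Grg3 Grg4 mutant and Grg3 mutant were also compared with each other. The median log2 change of the set was -0.097, with 9 values above 0 and 27 below, and the groups overlapped for every one of the 36 genes, while 11.8% of all genes were higher and 9.30% lower with no overlap. The 3 genes with an unadjusted p under 0.05 were Atf4 at -0.38 ± 0.14, Sec61g at -0.36 ± 0.13 and Manf at -0.36 ± 0.14 (SE, adjusted p = 0.203, 0.203 and 0.236 in edgeR). Without the second library labelled Grg3 mutant, Manf passed with a log2 change of -0.52 (adjusted p = 0.0464, within a range of 0.0464 to 0.460 over 15 settings). Without the third library labelled Grg3 mutant, the median of the set was 0.058, and without the second it was -0.23. It was -0.17, -0.034 and -0.064 without the first, the second and the third library labelled Grg3 Grg4 mutant.

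The spread of the set was uneven between the groups. The median coefficient of variation of the 36 genes over 3 libraries was 9.96% under the Grg3 Grg4 label, 21.3% under the Grg3 label and 4.37% in controls. Over all genes with at least 5 CPM the medians were 8.05%, 11.0% and 6.71% in the same groups. Of the 25 genes at their lowest in the second library labelled Grg3 mutant, 13 had their highest value in the third library of that label. All 3 sensors and 6 of 7 ERAD genes were among the 25, and all 6 disulfide isomerases were among the 19 genes highest in the third. The acinar enzyme sum of these libraries was 214191 CPM in the second and 405220 CPM in the third, and the sum of mesenchymal genes was 14692 CPM in the second. The part of these differences in tissue makeup in the result was not tested. In whole organs, fewer cells of a type and less RNA per cell cannot be told apart.

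Reads of the ER genes were also set against those of the digestive enzymes that the folding apparatus serves in acinar cells. The 36 genes summed to 16518, 14189.9 and 14703 CPM in the libraries labelled Grg3 Grg4 mutant, 16146, 11754 and 18627 CPM in those labelled Grg3 mutant and 16526, 17554 and 16912 CPM in the controls. The 35 acinar enzyme genes summed to 289847, 259743 and 297363 CPM under the Grg3 Grg4 label, 313278, 214191 and 405220 CPM under the Grg3 label and 398328, 456562 and 421868 CPM in controls. Of the enzyme genes, 10 of 35 fell and none rose under the Grg3 Grg4 label, beside 0.897% of all genes called lower. Their median log2 change was -0.69. Under the Grg3 label 8 of 35 fell and none rose, beside 0.694% of all genes called lower, with a median of -0.47 (edgeR, adjusted p under 0.05 in both). For each 100 reads of enzyme genes there were 5.70, 5.46 and 4.94 reads of ER genes under the Grg3 Grg4 label, 5.15, 5.49 and 4.60 reads under the Grg3 label and 4.15, 3.84 and 4.01 reads in controls. All 6 mutant-labelled libraries were above the controls in this ratio, which does not depend on the scaling of the libraries. The ratio also rises for any gene whose CPM holds while the enzyme sum falls, so its rise is not particular to the ER genes. In CPM, the set had median log2 changes of -0.18 and -0.086 under these labels, beside 0.012 and 0.019 over all genes. The ratio was not computed for other genes. The ratio was computed after the lists were known and got no test. Other cell types differed between the groups as well. The sum of 20 beta cell genes was 1536 to 3084 CPM under the Grg3 Grg4 label, 2687 to 4685 CPM under the Grg3 label and 4756 to 5528 CPM in controls. The sum of 18 liver genes was 859 to 2081 CPM, 370 to 1860 CPM and 217 to 232 CPM in the same groups. Plasma cells also express many ER genes, and their list of 12 genes with other lymphoid markers summed to 50.5 to 60.9 CPM, 60.2 to 65.2 CPM and 59.4 to 65.3 CPM, with Tnfrsf17 at 0 under the Grg3 Grg4 label. Sdc1, which is also made by epithelium, gave 44.7 to 57.8 CPM of each sum, and without it the other 11 genes summed to 4.61 to 6.001 CPM, 6.64 to 7.89 CPM and 8.65 to 13.0 CPM. Prdm1, a factor of plasma cells, was the 1 gene of this list called, and fell to 1.87 ± 0.25 CPM under the Grg3 Grg4 label, against 4.68 ± 0.84 CPM in controls (SD, n = 3 each), by a log2 change of -1.32 ± 0.21 (SE, adjusted p = 0.0188 in edgeR). Cd3e, a T cell receptor subunit, averaged 0.30 ± 0.13 CPM, 1.28 ± 1.70 CPM and 4.64 ± 1.49 CPM (SD, n = 3 each) in the same order of groups and was not called. The part of these cell types in the ER gene values was not tested.

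**Figure D4:**
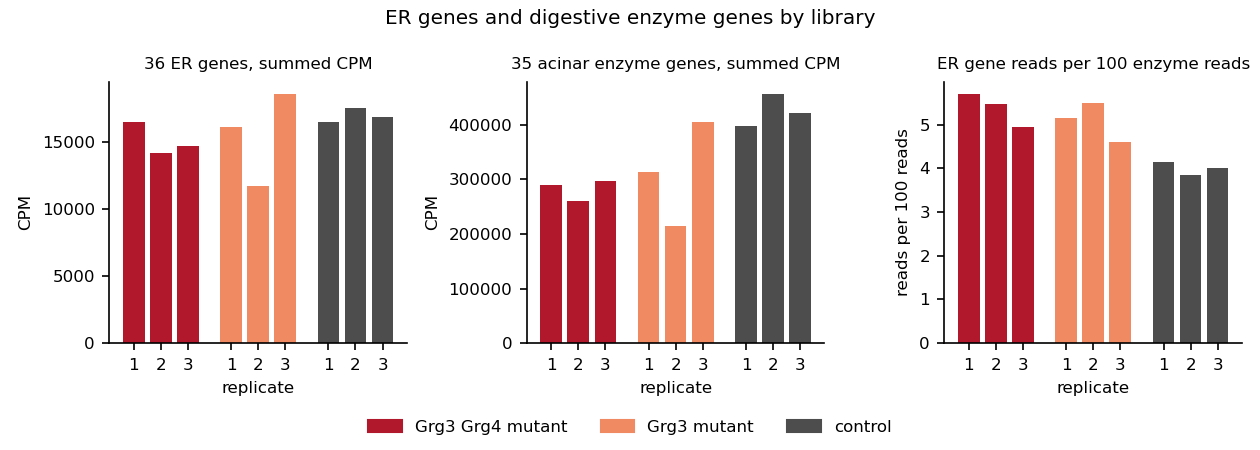
Bars give, for each library, the summed CPM of the 36 ER genes, the summed CPM of 35 acinar enzyme genes, and the reads of ER genes per 100 reads of enzyme genes. The last ratio was 4.60 to 5.70 in the 6 mutant-labelled libraries and 3.84 to 4.15 in the 3 controls.

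Levels per length were read as CPM per kb of annotated exon, a scale that allows a rough comparison between genes. The length joins the exons of all annotated transcripts, with 10431 bases for Ssr1 and 8049 for Derl2. A gene whose expressed transcripts are shorter than that reads too low in this order. In controls Pdia2 had 1730 ± 127 CPM per kb (SD, n = 3) and ranked 34 among 19016 genes with an exon length, and P4hb had 961 ± 52.8 CPM per kb and ranked 44. The next were Calr at 386 ± 34.4 and Hspa5 at 320 ± 19.3 CPM per kb. The sensors were far lower, with Eif2ak3 at 34.4 ± 2.29, Atf6 at 9.81 ± 0.65 and Ern1 at 8.88 ± 1.41 CPM per kb. At the bottom of the set were the stress-induced Ddit3 at 4.95 ± 0.27 and Trib3 at 4.22 ± 0.50 CPM per kb. Among the effectors, Xbp1 stood at 139 ± 3.63 and Atf4 at 103 ± 4.36 CPM per kb. Neighbours in this order overlapped between control libraries in 16 of 35 pairs, among them Atf6 and Ern1, and Ddit3 and Trib3, while Pdia2, P4hb, Calr and Hspa5 were each separate from the next. Under the Grg3 Grg4 label Pdia2 had 1310.1 ± 78.7 CPM per kb, P4hb 938 ± 58.4 and Hspa5 302 ± 20.3. Under the Grg3 label these genes had 1367 ± 485, 908 ± 246 and 315 ± 61.4 CPM per kb.

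**Figure D5:**
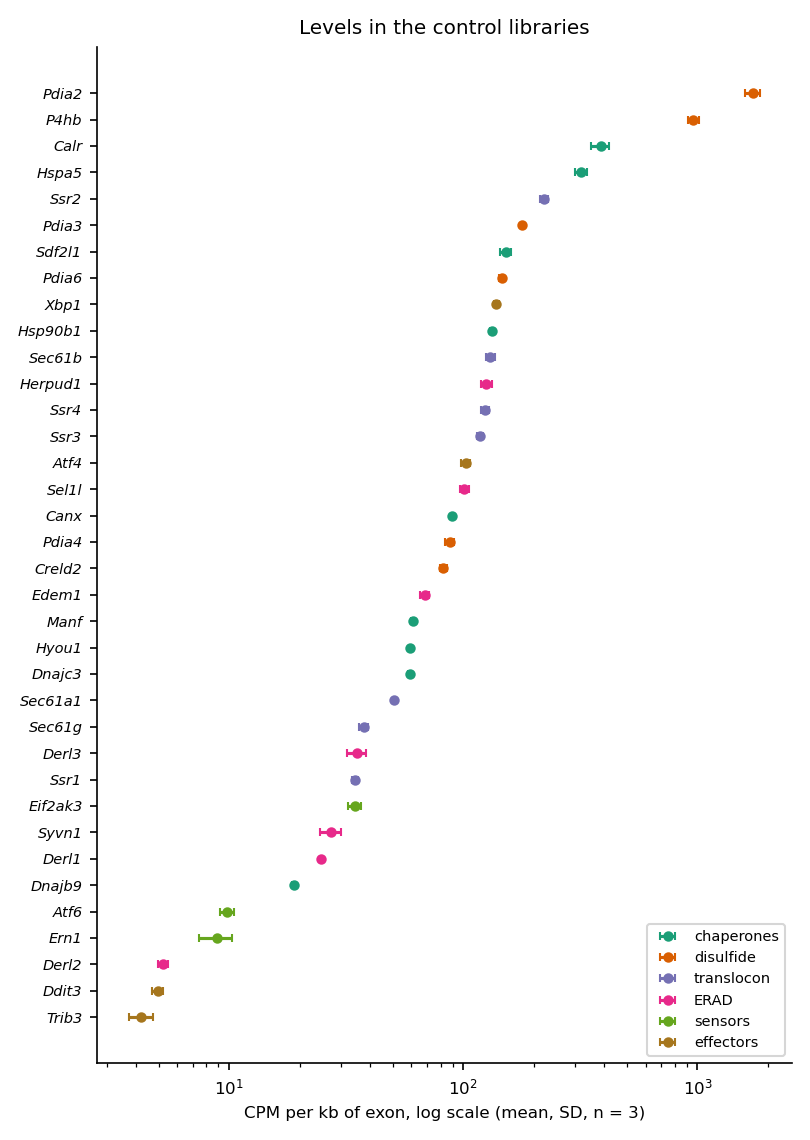
Points give the mean level of each gene in the 3 control libraries as CPM per kb of exon on a log axis, with SD bars, ordered by level and coloured by role. Disulfide isomerases and chaperones lead the order, from 1730 CPM per kb for Pdia2, and Trib3 closes it at 4.22.

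The rest of the pathway was read from 120 other genes that were tested, in lists of folding, translocation, ERAD, regulators of the response and Atf4 targets. Under the Grg3 Grg4 label 0 of 120 were called, beside 2.14% of all genes tested. Their median log2 change was -0.11, beside 0.012 over all genes. Under the Grg3 label 0 rose and 1 fell, beside 1.40% of all genes called in either direction. The median was -0.064, beside 0.019 over all genes. The one that fell was Slc7a1, a transporter of cationic amino acids counted among the Atf4 targets, with 72.7 ± 12.1 CPM under the Grg3 label and 115 ± 10.5 CPM in controls (SD, n = 3 each) and a log2 change of -0.66 ± 0.13 (SE, adjusted p = 0.0400 in edgeR). Between the mutant labels 0 of 120 were called, beside 0.188% of all genes. Stt3b, a catalytic subunit of the enzyme that attaches N-glycans, came nearest in the first comparison at -0.42 ± 0.11 (SE, adjusted p = 0.0756 in edgeR). Edem3, a relative of Edem1, came nearest after Slc7a1 in the second at -0.73 ± 0.17 (SE, adjusted p = 0.0662 in edgeR). Bhlha15 (Mist1), a target of Xbp1 that shapes the secretory apparatus of acinar cells, had 255 ± 31.2 CPM under the Grg3 Grg4 label, 272 ± 93.5 CPM under the Grg3 label and 340.2 ± 19.2 CPM in controls (SD, n = 3 each). Its log2 changes were -0.41 ± 0.22 and -0.32 ± 0.22 (SE, adjusted p = 0.335 and 0.466 in edgeR), and neither passed.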

How the data were processed

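RNA of whole e18.5 pancreas was measured in 9 libraries, 3 embryos per genotype per the series' design text, from RNA extracted with a Qiagen column kit per the labels' protocols. The deposited files hold raw read counts per gene symbol, 1 file per library, not normalized by the authors. HISAT2 and HTSeq, with Trim Galore, FastQC, DESeq2 and bedtools, are tools listed without a role in the submitters' processing notes, and GRCm38 (mm10) is the build. Versions, strand setting and annotation were not given in the sources used here. Rows that name no gene, 5 in each file, held 28.5% to 33.2% of the reads, mostly reads aligned to several places (15.8% to 20.7%), and stayed out of library sizes and tests, so genes with near-identical copies are undercounted.

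Groups were compared on the deposited counts with edgeR 4.0.16 (R 4.3.3), by its quasi-likelihood F test, 2-sided, with TMM scaling and filterByExpr (minimum count 10, minimum total 15). The 3 groups were fitted together over the 9 libraries. Adjusted p are Benjamini-Hochberg over all 19166 genes tested, and a gene was called under 0.05. The SE of a log2 change is its size over the root of F, and CPM are per TMM-scaled library. Replicates differed beyond counting noise, with a chi-square per degree of freedom of 18.5 to 213. Positions and exon lengths are from GENCODE M21 on GRCm38, which may not be the annotation counted with, and promoter windows are from RefSeq. Scripts were tested on simulated data.

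The members and lists were chosen with earlier results of these data known. All 36 genes are accounted for. Values per library are given for the 2 genes with the smallest p of each role and comparison and for Hspa5, Xbp1, Atf4, Ddit3 and Pdia2. Of other lists, up to 4 genes with the smallest p were open to naming. Alternatives were DESeq2 1.42.0 size factors or its Wald test, acinar enzymes left out of the scaling, no filter, a replicate block, sex as a term, a fit of the compared libraries alone, leaving out each library in turn, and the total count as the scale.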

Additional observations from a re-analysis of the deposited data

How the results depend on the processing

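The 36 genes were refitted under 14 alternatives per comparison. None of them was called as reported, so there was no called change whose direction could turn. Between libraries labelled Grg3 Grg4 mutant and controls, 0 genes of the set were called as reported, beside 2.14% of all genes tested. Without a filter 2 were called (Dnajb9 and Atf6), beside 2.79%, and DESeq2's Wald test called the same 2, beside 8.10%. With only the 6 libraries compared 4 were called (Dnajb9, Atf6, Atf4 and Herpud1), beside 4.07%. With the total count as the scale 1 was called (Creld2), beside 9.13%. Between libraries labelled Grg3 mutant and controls, 1 was called without a filter (Eif2ak3), beside 1.76% of all genes tested. DESeq2's Wald test called 3 (Edem1, Eif2ak3 and Ddit3), beside 7.63%, and the fit with the total count called 1 (Creld2), beside 3.38%. Leaving out 1 library gave 0 in each comparison with controls and 0 to 1 between the mutant labels. The 1 was Manf, without the second library labelled Grg3 mutant, beside 0.249% of all genes tested. DESeq2 size factors, enzymes left out of the scaling and sex as a term gave 0 throughout. The cause of these differences was not tested.

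All genes called, 410, 268 and 36 in the 3 comparisons in the order used above, numbered 930, 586 and 228 without a filter, 1553, 1463 and 1019 with DESeq2's Wald test, 30, 169 and 4 with sex as a term, and 1750, 647 and 21 with the total count. The fit without a filter tested 33324 genes. With only the 6 libraries compared the called genes numbered 750, 255 and 10. Leaving out 1 library gave 50 to 320, 32 to 289 and 6 to 49. The labels do not say what a replicate number shares. Deviations of same-numbered libraries correlated at -0.0858 to 0.0940 and those of others at -0.148 to 0.165. These values cannot show whether same-numbered libraries shared a litter or a day. With a replicate block 254, 167 and 11 genes were called (1.33%, 0.871% and 0.0574% of those tested), and 1, 0 and 0 of the set. The 1 was Dnajb9 at a log2 change of -0.74 (adjusted p = 0.0278 in edgeR, within 0.00117 to 0.173 over all settings).

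Of 504 refitted values per comparison, 31, 31 and 44 had another sign than reported, and 12, 18 and 18 genes kept their sign in all. With SE of 0.10 to 0.25 on the log2 scale, changes well under 2-fold could not be told from 0 for most genes.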
